A study of Mus musculus with 20 samples.

Results

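A set of 10 imprinted genes known for their part in fetal growth, Igf2, H19, Dlk1, Meg3, Peg3, Mest, Grb10, Plagl1, Igf2r and Ndn, was followed in whole mouse hearts at E13.5, when the chambers are being divided. They were taken by name, with no threshold on a measured value, and all 10 had a row among the 48795 genes of the expression table and passed the filter on low values in every comparison. The 20 hearts came from 4 groups of 5 on a C57BL/6J background. Dp3Tyb embryos carried Dp(16Mir802-Zbtb21)3TybEmcf, an extra copy of a stretch of mouse chromosome 16, and wt_d is read here as their wild-type (WT) controls. Ts1Rhr embryos carried Dp(16Cbr1-Fam3b)1Rhr, a shorter extra stretch of the same chromosome, and wt_t is read as theirs. The labels call both wt groups control and tell them apart only by the initial, so that the pairing of each with its strain rests on that initial. Both strains are mouse models of Down syndrome. The labels name heart defects for the 5 Dp3Tyb hearts and for replicates 1 and 2 of Ts1Rhr, and none for replicates 3, 4 and 5 of Ts1Rhr. The study's own text, however, describes Ts1Rhr embryos as free of congenital heart defects. None of the 10 genes lies on chromosome 16, so none was present in an extra copy. Replicate numbers followed the order of the samples and only name a heart. By the study's methods control and mutant embryos were littermates, but which hearts shared a litter or a day of dissection was not given in the sources used here, so p-values measure the spread between these hearts.

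Imprinted genes are expressed mainly from the copy inherited from the mother or mainly from the copy inherited from the father, with the choice set by DNA methylation laid down in the germ line. Many of them control fetal growth, and the paternally expressed growth factor Igf2 and its maternally expressed decoy receptor Igf2r are the classical opposed pair. In the embryo Igf2 acts through the receptors Igf1r and Insr, Grb10 damps signalling from those receptors, and Plagl1 is a zinc-finger transcription factor known to act on other imprinted genes. The table does not separate maternal from paternal transcripts, so imprinting itself was not measured here.

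The libraries held 6.60 to 19.6 M reads (median 16.9 M), and the 10 genes together took 2.51 to 3.01% of a library. Values are the deposited normalised read counts, in which reads are divided by a size factor of the library. The share of these values in mitochondrially encoded genes, a common measure of RNA or tissue quality, was 4.85 to 7.17% in 13 hearts and 10.5 to 19.5% in 7 hearts, which are called here hearts of low and of high mitochondrial share. The high hearts were replicate 5 of wt_d, replicate 5 of Dp3Tyb, replicates 1, 2 and 4 of wt_t and replicates 1 and 2 of Ts1Rhr. They also included the shallowest library, at 6.60 M reads. Within Ts1Rhr the label of heart defects and a high mitochondrial share fell on the same 2 hearts and cannot be told apart. The defining cardiac markers were abundant, the summed value of 10 of 10 cardiomyocyte markers being 320183 to 540085, while that of 5 skeletal muscle markers, 1 of which passed the filter, was 5.74 to 115.

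Several of the genes share a locus or carry other RNAs. On GRCm38, the build named in the submitters' processing notes, RefSeq places Igf2 at chr7:142650768-142666816 on the minus strand and H19, a maternally expressed long noncoding RNA, downstream of it at chr7:142575530-142578146 on the same strand. Dlk1, which encodes a Notch-ligand-like membrane protein, lies at chr12:109452485-109463336, and Meg3, a maternally expressed long noncoding RNA, at chr12:109540996-109571729, both on the plus strand. Peg3 (chr7:6703892-6730462, minus strand), a zinc-finger gene, Ndn (chr7:62348277-62349928, plus strand), which encodes the growth suppressor necdin, and Mest (chr6:30733506-30748466, plus strand), which encodes a hydrolase-like protein of the endoplasmic reticulum, are expressed from the paternal copy. Plagl1 (chr10:13090832-13131694, plus strand), Grb10 (chr11:11930499-12037428, minus strand) and Igf2r (chr17:12682406-12769706, minus strand) lie on chromosomes of their own. Of these transcripts H19, Igf2, Mest and Meg3 hold the hairpins of microRNAs, small RNAs that poly(A) libraries of this kind do not capture. The table listed all of these microRNA genes at 0 in the 20 libraries, so the values given for the hosts say nothing of the mature RNAs. The mature sequences from RefSeq, with the seed (bases 2 to 8, which pairs with targets) in capitals, have a different seed in each of the 4 shown.
mmu-miR-675-5p, in H19: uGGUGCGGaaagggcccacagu
mmu-miR-483-3p, in Igf2: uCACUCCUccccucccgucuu
mmu-miR-335-5p, in Mest: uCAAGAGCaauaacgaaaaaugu
mmu-miR-770-5p, in Meg3: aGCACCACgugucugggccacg

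Start-site windows are shown for the genes of 2 pairs, Dlk1 with Meg3, whose levels were correlated in the 20 hearts and in the 13 of low mitochondrial share, and Igf2 with Plagl1, both higher in all hearts of high mitochondrial share. Each window holds 300 bases, 250 before and 50 after an annotated RefSeq start, and the window with the most CG dinucleotides was taken for each gene. CG dinucleotides, the sites at which imprints are written as methylation, are in capitals.
Igf2, chr7:142658755-142659054, minus strand: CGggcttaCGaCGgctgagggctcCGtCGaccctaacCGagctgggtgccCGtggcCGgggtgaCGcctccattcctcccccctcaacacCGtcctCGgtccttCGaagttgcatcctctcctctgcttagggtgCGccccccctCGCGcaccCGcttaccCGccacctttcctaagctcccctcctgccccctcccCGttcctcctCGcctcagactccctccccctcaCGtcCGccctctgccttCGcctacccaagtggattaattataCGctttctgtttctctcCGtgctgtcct
Plagl1, chr10:13090582-13090881, plus strand: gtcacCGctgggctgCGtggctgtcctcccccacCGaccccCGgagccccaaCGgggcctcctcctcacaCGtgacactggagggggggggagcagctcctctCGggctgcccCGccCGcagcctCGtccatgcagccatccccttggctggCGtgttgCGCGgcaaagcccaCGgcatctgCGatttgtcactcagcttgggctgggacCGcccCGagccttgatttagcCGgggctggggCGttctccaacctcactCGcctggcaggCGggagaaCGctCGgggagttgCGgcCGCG
Dlk1, chr12:109452573-109452872, plus strand: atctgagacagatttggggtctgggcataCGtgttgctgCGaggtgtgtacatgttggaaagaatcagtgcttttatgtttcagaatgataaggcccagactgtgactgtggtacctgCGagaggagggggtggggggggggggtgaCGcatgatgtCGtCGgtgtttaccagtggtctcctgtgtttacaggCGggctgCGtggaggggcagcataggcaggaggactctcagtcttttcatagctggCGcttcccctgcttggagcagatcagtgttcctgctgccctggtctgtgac
Meg3, chr12:109540746-109541045, plus strand: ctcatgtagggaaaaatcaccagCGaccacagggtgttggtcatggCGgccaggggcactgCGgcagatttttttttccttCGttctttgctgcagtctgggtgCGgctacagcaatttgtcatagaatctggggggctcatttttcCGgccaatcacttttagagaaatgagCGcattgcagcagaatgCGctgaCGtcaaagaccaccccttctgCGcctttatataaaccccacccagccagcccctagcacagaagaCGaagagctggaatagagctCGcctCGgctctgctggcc
The windows of Igf2 and Plagl1 held 24 and 26 CG dinucleotides, where the upper quartile over 32851 start-site windows of the same length, not chosen for richness, was 20. The other windows of Igf2 held 2, 7 and 14, and Plagl1 had no other window. The windows of Dlk1 and Meg3 held 9 and 13, between the median of 7 and that quartile. The other window of Meg3 held 1, and Dlk1 had no other window. Over the 16 windows of the members the richest was that of Grb10, with 45, followed by Igf2r with 34. H19 is named only. Methylation was not measured in these hearts.

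H19 and Igf2 were the most abundant of the 10 and stood among the most abundant RNAs of the heart. Per kilobase of exon, and as mean ± SD over 20 hearts, H19 reached 54363 ± 10164 and Igf2 18479 ± 4384 normalised reads, the 11th and 24th highest of 15217 genes with a length. Mest (5417 ± 567), Igf2r (4240 ± 472), Grb10 (2761 ± 94.3) and Plagl1 (2062 ± 566) followed, at ranks 53, 68, 121 and 161. Peg3 (894 ± 108), Meg3 (348 ± 47.4), Dlk1 (283 ± 83.7) and Ndn (244 ± 41.2) were lowest, and Ndn still ranked 1949. The ranges of neighbours did not meet between H19, Igf2 and Mest, between Igf2r and Grb10, or between Plagl1, Peg3 and Meg3. Mest and Igf2r overlapped in range although Mest was above Igf2r in 20 of 20 hearts. Grb10 exceeded Plagl1 in 17 of 20 hearts, Meg3 exceeded Dlk1 in 15 of 20 and Dlk1 exceeded Ndn in 13 of 20, so the order of these neighbours did not hold beyond their spread. The GENCODE exon length used for Ndn, 3777 bases, is longer than its RefSeq span of 1652 bases. Its last place and its rank therefore depend on the length taken. For H19 the length is 2848 bases and the span 2617. The exon length of Mest counts 3850 bases that it shares with Copg2 on the opposite strand, and that of Igf2 counts 254 bases shared with Igf2os. Whether reads were counted by strand was not given in the sources used here, but the median values of these partners (1169 reads for Copg2 and 931.5 for Igf2os) were small beside 49174 for Mest and 117110 for Igf2 in reads.

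The spread between hearts differed from gene to gene. Grb10, the adaptor that restrains insulin and IGF receptors, was the steadiest, with a coefficient of variation (CV) of 3.42% over the 20 hearts and values from 26464 to 29900. The median CV of 5966 genes with a mean of at least 500 was 10.3%, with quartiles of 7.33 and 15.1%. Mest (10.5%), Igf2r (11.1%), Peg3 (12.1%) and Meg3 (13.6%) lay between these quartiles. Ndn (16.9%), H19 (18.7%), Igf2 (23.7%), Plagl1 (27.5%) and Dlk1 (29.6%) lay above the upper one. In the 13 hearts of low mitochondrial share the CV was 4.73% for Igf2, 5.89% for H19, 5.33% for Plagl1 and 7.95% for Ndn, while that of Dlk1 was still 27.8%. Dlk1 therefore varied about as much among the low hearts as among all 20.

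**Figure D1:**
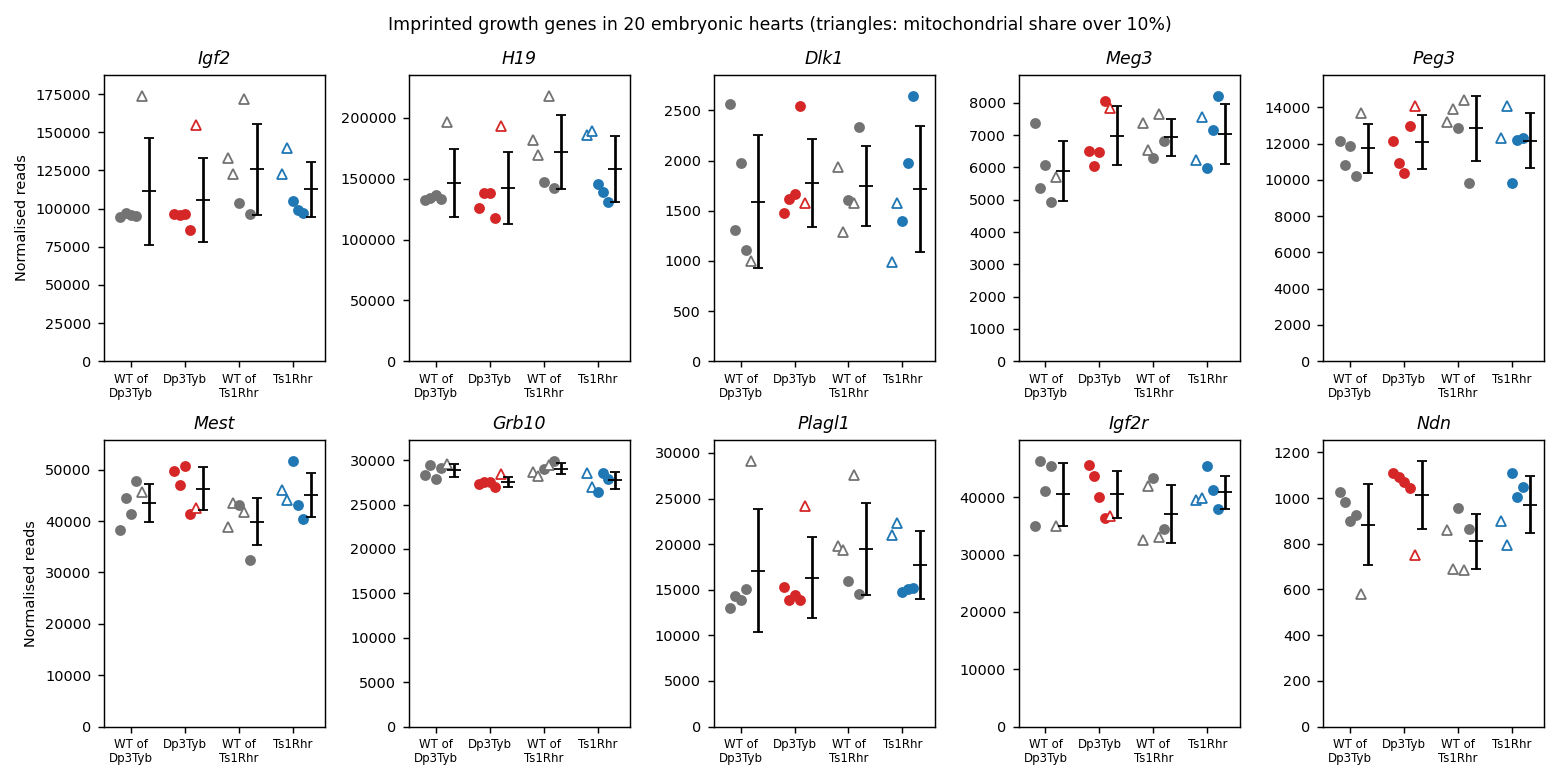
Normalised reads of each of the 10 imprinted genes in each of the 20 hearts, by group. Open triangles are hearts of high mitochondrial share, filled circles are the other hearts, and black bars are the group mean and SD. Igf2, H19 and Plagl1 are highest in the hearts of high mitochondrial share of every group, Dlk1 spreads from 990 to 2647, and Grb10 stays between 26464 and 29900.

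Igf2, H19 and Plagl1 were each higher in every heart of high mitochondrial share than in any other heart. Igf2 was 94564, 97155, 95825, 95065 and 173965 in wt_d and 96509, 95675, 96460, 85955 and 154621 in Dp3Tyb, in the order of replicates 1 to 5. It was 133223, 122481, 104011, 172093 and 96592 in wt_t and 122490, 139494, 104879, 99390 and 96871 in Ts1Rhr. Over both cohorts it ranged from 85955 to 104879 (median 96509) in the 13 low hearts and from 122481 to 173965 (median 139494) in the 7 high hearts, a ratio of medians of 1.45. H19 was 132533, 134198, 136502, 132916 and 196663 in wt_d, 125833, 138019, 138134, 118097 and 193207 in Dp3Tyb, 182183, 169504, 147648, 218147 and 142692 in wt_t and 185533, 189198, 145844, 138733 and 130915 in Ts1Rhr. Its low hearts lay at 118097 to 147648 and its high hearts at 169504 to 218147, 1.39 times as high by the medians. Plagl1 was 13048, 14334, 13919, 15106 and 29114 in wt_d, 15250, 13854, 14427, 13862 and 24161 in Dp3Tyb, 19831, 19373, 15989, 27634 and 14570 in wt_t and 21054, 22368, 14730, 15053 and 15195 in Ts1Rhr. Its ranges were 13048 to 15989 and 19373 to 29113, with a ratio of medians of 1.54, the largest of the 10 genes. The 3 genes also did not overlap when reads were scaled by TMM (ratios 1.44, 1.37 and 1.53) or to the reads outside the mitochondrial genome (1.37, 1.27 and 1.46). Of 15348 genes tested in all libraries, 8.40% were likewise higher in all 7 high hearts than in any low heart. That share was 7.58% with TMM and 5.13% with scaling to the reads outside the mitochondrial genome. In whole hearts fewer cells of a type and less RNA per cell cannot be told apart.

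Ndn went the opposite way. It was 1026, 985, 901, 928 and 578 in wt_d and 1110, 1092, 1071, 1044 and 752 in Dp3Tyb, with replicate 5 lowest in each. In the other cohort it was 858, 688, 957, 685 and 863 in wt_t and 899, 795, 1112, 1005 and 1050 in Ts1Rhr. The low hearts ranged from 863 to 1112 and the high hearts from 578 to 899, so the ranges overlapped at the ratio of medians of 0.733. With scaling to the reads outside the mitochondrial genome they no longer overlapped, and the ratio was 0.667. Under that scaling the median log2 difference of all genes, high minus low hearts, was -0.11, against -0.013 as deposited, and 11.6% of 15348 genes were then lower in all 7 high hearts than in any low heart, against 6.45% as deposited. For Peg3 (1.17), Meg3 (1.14), Grb10 (1.02), Mest (1.01), Dlk1 (0.946) and Igf2r (0.890) the ranges of the low and high hearts overlapped.

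**Figure D2:**
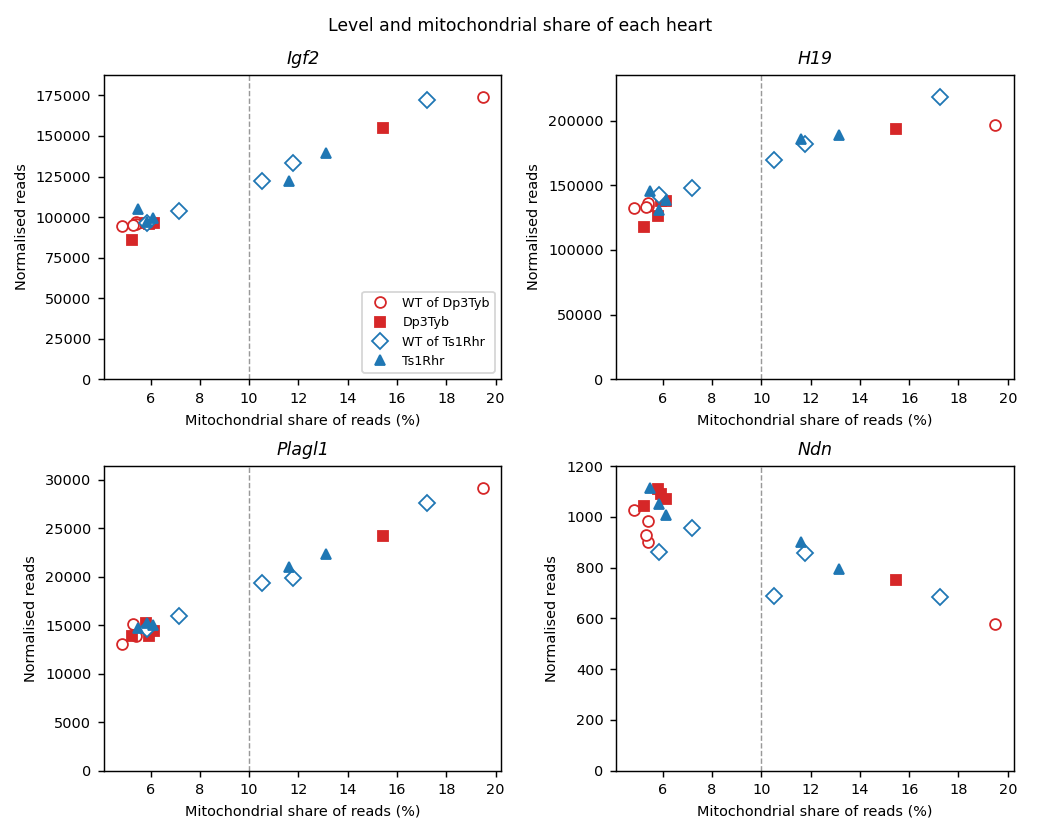
Normalised reads of Igf2, H19, Plagl1 and Ndn in each heart against the mitochondrial share of its library (percent), with a symbol for each group and a dashed line at 10%. For Igf2, H19 and Plagl1 the 7 hearts above 10% lie above all 13 others, and for Ndn they lie mostly below.

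Within the 7 high hearts the levels of Igf2 and Plagl1 followed the mitochondrial share by r and not by rho. Within the 13 low hearts no such relation passed for Igf2, H19, Plagl1 or Ndn. The difference between these sets of hearts was not tested, and group means were removed only in the 13. In the 7 hearts Igf2 gave r = 0.971 (adjusted p = 0.0278) and rho = 1.0 (adjusted p = 0.0556) by exact permutation tests adjusted over 140 relations of members with measures. For Plagl1 the exact test gave r = 0.985 (adjusted p = 0.0278) and rho = 0.964 (adjusted p = 0.189). Without the 2 hearts of most extreme share r was 0.957 and 0.956. H19 (r = 0.786, rho = 0.929, adjusted p = 0.21 and 0.189, exact) and Ndn (r = -0.73, rho = -0.64, adjusted p = 0.35 and 0.556, exact) did not pass. In the 13 hearts r was 0.594 for Igf2, 0.459 for H19, 0.617 for Plagl1 and 0.101 for Ndn, with exact adjusted p of 0.266, 0.261, 0.204 and 0.927. Ranked by r with mitochondrial share over 20 hearts among 10898 genes, Plagl1 was 14th, Igf2 69th and H19 566th, which is a description over hearts that fall into separate clusters. Depth moved with the same hearts, since within the 7 hearts Igf2 and Plagl1 gave r of -0.80 and -0.87 with the log2 of the reads per library (exact adjusted p = 0.198 and 0.111). The part of RNA quality, depth and cell composition in these levels was not tested.

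Correlations among Igf2, H19 and Plagl1 are given for each set of hearts. Igf2 and H19, neighbours that share enhancers, were correlated in the 13 low hearts (r = 0.811, exact adjusted p = 0.045 over 45 pairs), though not by rank (rho = 0.670, adjusted p = 0.169), and r was 0.607 without the 2 hearts of most extreme Igf2. In the 7 high hearts r was 0.843 and rho 0.929 (exact adjusted p = 0.0714 and 0.101). Igf2 and Plagl1 gave r = 0.956 in the 7 hearts (exact adjusted p = 0.0714) and r = 0.373 in the 13 (exact adjusted p = 0.5). H19 and Plagl1 gave r = 0.845 in the 7 hearts (exact adjusted p = 0.0714) and r = -0.02 in the 13 (exact adjusted p = 0.976). The difference between the sets was not tested. Among 10897 genes ordered by r, H19 ranked 192nd for Igf2 over the 20 hearts and 298th over the 13, and Igf2 ranked 17th for H19 over the 20 hearts and 118th over the 13.

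A second pattern ran through Dlk1, Meg3, Mest and Igf2r and was seen over the 20 hearts and in the 13 low hearts. Dlk1 was 2563, 1309, 1976, 1112 and 995 in wt_d, 1475, 1617, 1664, 2549 and 1573 in Dp3Tyb, 1937, 1288, 1608, 1573 and 2333 in wt_t and 990, 1576, 1402, 1977 and 2647 in Ts1Rhr. Meg3 was 7368, 5365, 6088, 4931 and 5716 in wt_d, 6504, 6051, 6487, 8063 and 7841 in Dp3Tyb, 7380, 6538, 6282, 7662 and 6813 in wt_t and 6236, 7550, 5996, 7170 and 8221 in Ts1Rhr. Replicate 1 of wt_d, replicate 4 of Dp3Tyb, replicate 5 of wt_t and replicate 5 of Ts1Rhr had the highest Dlk1 of their groups. Mest was 38305, 44462, 41348, 47846 and 45731 in wt_d, 49670, 47104, 50792, 41460 and 42548 in Dp3Tyb, 38783, 43420, 43064, 41818 and 32418 in wt_t and 46129, 44186, 51678, 43187 and 40334 in Ts1Rhr. It was lowest in the heart with the highest Dlk1 in all 4 groups. Igf2r was 34908, 46292, 41006, 45397 and 34991 in wt_d, 45646, 43753, 40020, 36365 and 36715 in Dp3Tyb, 32593, 41913, 43263, 33093 and 34491 in wt_t and 39572, 39931, 45453, 41233 and 37941 in Ts1Rhr.

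With the mean of each group removed, 16 of the 45 pairs of members passed the permutation test by r over the 20 hearts (9 positive and 7 negative), 14 passed by rho and 13 by both. With mitochondrial share removed as well 7 pairs passed, 6 of them among the 16, and with scaling to the reads outside the mitochondrial genome 23 passed, 10 of them among the 16. How many pairs of other genes would pass was not counted. In order of r over 10897 genes, Meg3 was 277th for Dlk1 and Dlk1 199th for Meg3. For Peg3, Igf2 was only 1879th, and for Igf2, Peg3 was 3086th, although this pair passed by r. Dlk1 rose with Meg3, the noncoding RNA of its own locus (r = 0.717, rho = 0.680, adjusted p = 0.00671 and 0.0186, permutation), and r was 0.560 without the 2 hearts of most extreme Dlk1. Within the Dp3Tyb cohort (Dp3Tyb and wt_d) this r was 0.764 and within the Ts1Rhr cohort (Ts1Rhr and wt_t) 0.661. Both fell as Mest rose. Dlk1 with Mest gave r = -0.76 and rho = -0.75 (adjusted p = 0.00135 and 0.0057, permutation; -0.695 without the 2 hearts), and Meg3 with Mest gave r = -0.71 and rho = -0.74 (adjusted p = 0.0045 and 0.0057, permutation; -0.62 without them). Meg3 with Igf2r gave r = -0.76 and rho = -0.71 (adjusted p = 0.00187 and 0.0054, permutation; -0.73 without them). Mest and Igf2r rose together by r (0.614, adjusted p = 0.0301, permutation; 0.584 without them) but not by rho (0.562, adjusted p = 0.0549), and this call was lost when replicate 1 or 4 of wt_d, 4 or 5 of Dp3Tyb, 2 or 3 of wt_t or 3 of Ts1Rhr was left out (r = 0.560 to 0.593). Dlk1 with Igf2r did not pass over the 20 hearts (r = -0.405, adjusted p = 0.204, permutation). Scaling to the reads outside the mitochondrial genome ended the calls of Dlk1 with Mest (r = -0.42) and of Meg3 with Igf2r (r = -0.39).

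**Figure D3:**
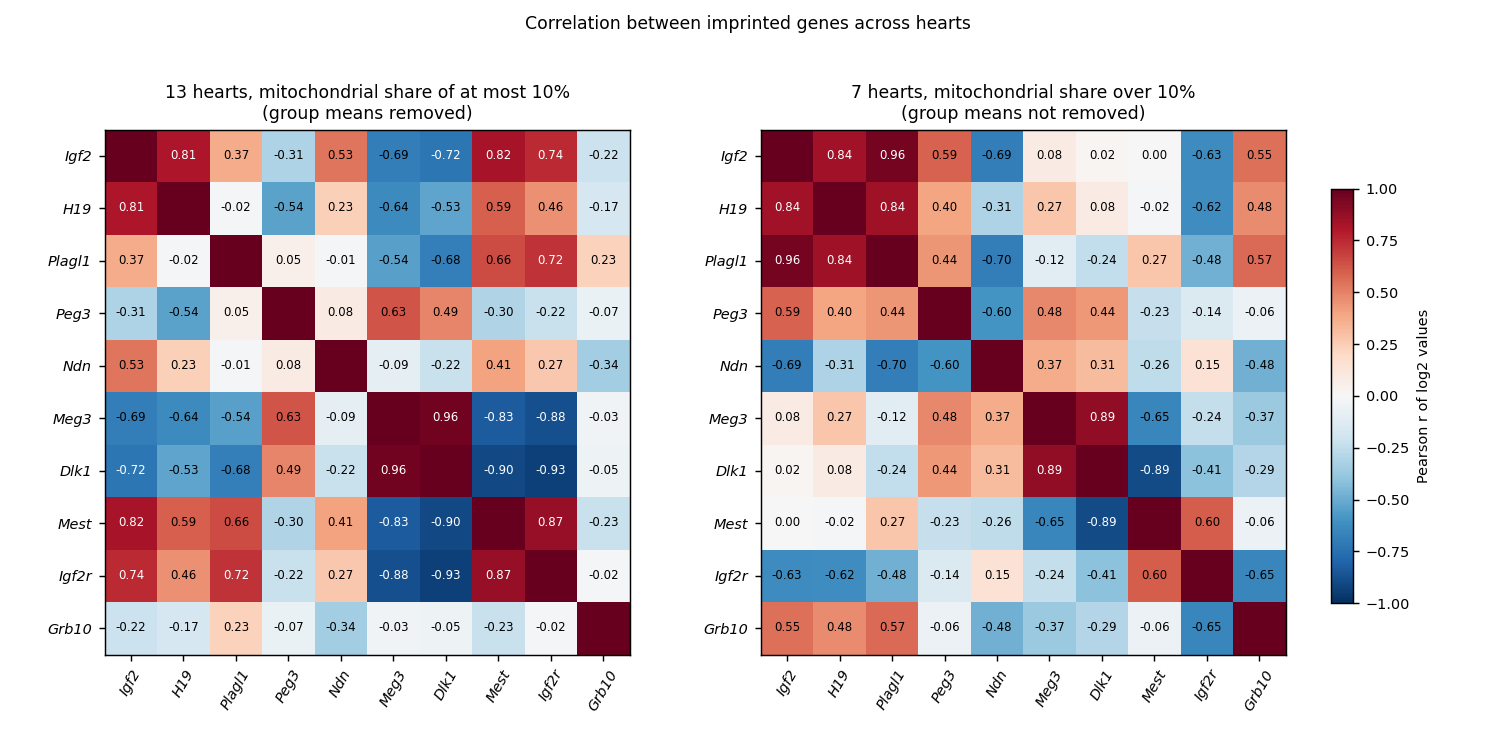
Pearson correlation of log2 values for each pair of the 10 genes in the 13 hearts of low mitochondrial share, with group means removed (left), and in the 7 hearts of high share, with group means not removed (right). Red is positive and blue negative. Dlk1 and Meg3 are positive in both panels (0.962 and 0.886) and Dlk1 and Mest negative in both (-0.90 and -0.89), while Igf2 with Igf2r is positive on the left (0.744) and negative on the right (-0.63). No pair passed the test in the 7 hearts.

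The coefficients of these pairs lay further from 0 in the 13 low hearts, where 12 of 45 pairs passed by r in exact permutation tests (5 positive and 7 negative) and 8 of these also by rho. Dlk1 with Meg3 reached r = 0.962 and rho = 0.945 (exact adjusted p = 0.00814 and 0.0174) and was 0.935 without the 2 hearts of most extreme Dlk1. Dlk1 with Mest was -0.90 (rho = -0.86) and with Igf2r -0.93 (rho = -0.87), and each had exact adjusted p of 0.00814 by r and 0.0174 by rho. Mest with Igf2r passed by r (0.870, exact adjusted p = 0.0195) and not by rho (0.802, exact adjusted p = 0.0534). Igf2 joined the side of Mest (r = 0.820, rho = 0.896, exact adjusted p = 0.0312 and 0.0419) and of its receptor Igf2r (r = 0.744, rho = 0.786, exact adjusted p = 0.0195 and 0.0273) and was opposed to Dlk1 (r = -0.72, rho = -0.73, exact adjusted p = 0.0304 and 0.0347). In the 7 high hearts Igf2 with Igf2r was negative but did not pass (r = -0.63, rho = -0.54, exact adjusted p = 0.509 and 0.624), and the difference from the 13 hearts was not tested. In those hearts Dlk1 with Mest was -0.89 and Dlk1 with Meg3 0.886, with exact adjusted p of 0.0714 and 0.105.

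Dlk1 and Mest moved with marker genes of mesenchyme and of cardiomyocytes, in opposite directions. All 10 of 10 fibroblast and mesenchyme markers (among them Col1a1, Col3a1, Pdgfra and Tcf21) passed the filter, none was at 0 in all hearts, and their summed values were 99713 to 149270 in wt_d, 128695 to 164780 in Dp3Tyb, 120097 to 152116 in wt_t and 118059 to 179893 in Ts1Rhr. Dlk1 followed the score of this list (r = 0.928, rho = 0.902, adjusted p = 0.0002 and 0.00084, permutation), with r of 0.930 without the 2 hearts of most extreme score, 0.981 and 0.906 within the Dp3Tyb and Ts1Rhr cohorts, 0.935 in the 13 low hearts and 0.553 in the 7 high hearts. It was opposed to the cardiomyocyte score (r = -0.94, rho = -0.86, adjusted p = 0.0002 and 0.00237, permutation; -0.92 without the 2 hearts). Its level was also related to endothelial (r = -0.88), macrophage (0.866), smooth muscle (0.805), neural crest and Schwann (0.797) and skeletal muscle markers (0.687), with permutation adjusted p of 0.0002, 0.00109, 0.00658, 0.00658 and 0.013, so no single list set it apart. Mest showed the reverse, with r = -0.84 for the fibroblast score (rho = -0.78, adjusted p = 0.00035 and 0.00237, permutation; -0.77 without the 2 hearts) and 0.699 for the cardiomyocyte score (rho = 0.620, adjusted p = 0.00359 and 0.0269, permutation; 0.624 without them). Mest was related to smooth muscle (r = -0.73), endothelial (0.673), neural crest and Schwann (-0.64), macrophage (-0.59) and skeletal muscle markers (-0.57) as well, with permutation adjusted p of 0.00248, 0.00898, 0.013, 0.0309 and 0.0309, and 9 of the 12 lists passed for it by both coefficients. The skeletal muscle score here and below rests on 1 gene of low level, Myog (3.83 to 73.0, median 10.1), and the liver score on 3 of 8 listed genes. Meg3 was closest to the smooth muscle score (r = 0.903, rho = 0.877, adjusted p = 0.0002 and 0.00084, permutation; 0.855 without the 2 hearts), whose 5 of 5 markers passed the filter with a summed value of 17930 to 22888. For Meg3 the fibroblast (r = 0.594, adjusted p = 0.0355, permutation) and cardiomyocyte scores (r = -0.65, adjusted p = 0.0309, permutation) passed by r and not by rho (adjusted p = 0.098 and 0.0982) over the 20 hearts. For Igf2r neither the fibroblast (r = -0.33, adjusted p = 0.31, permutation) nor the cardiomyocyte score (r = 0.299, adjusted p = 0.331, permutation) passed over the 20 hearts. Igf2r followed the proliferation score (r = 0.748, rho = 0.731, adjusted p = 0.0026 and 0.0066, permutation; 0.730 without the 2 hearts), a list of 10 cell-cycle genes such as Mki67 and Top2a. Mest also rose with this score (r = 0.652, rho = 0.686, adjusted p = 0.021 and 0.0127, permutation; 0.634 without them) and Meg3 fell (r = -0.60, rho = -0.63, adjusted p = 0.0192 and 0.0219, permutation; -0.58 without them), while Grb10 passed by r (-0.55, adjusted p = 0.0406, permutation) and not by rho (adjusted p = 0.101).

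**Figure D4:**
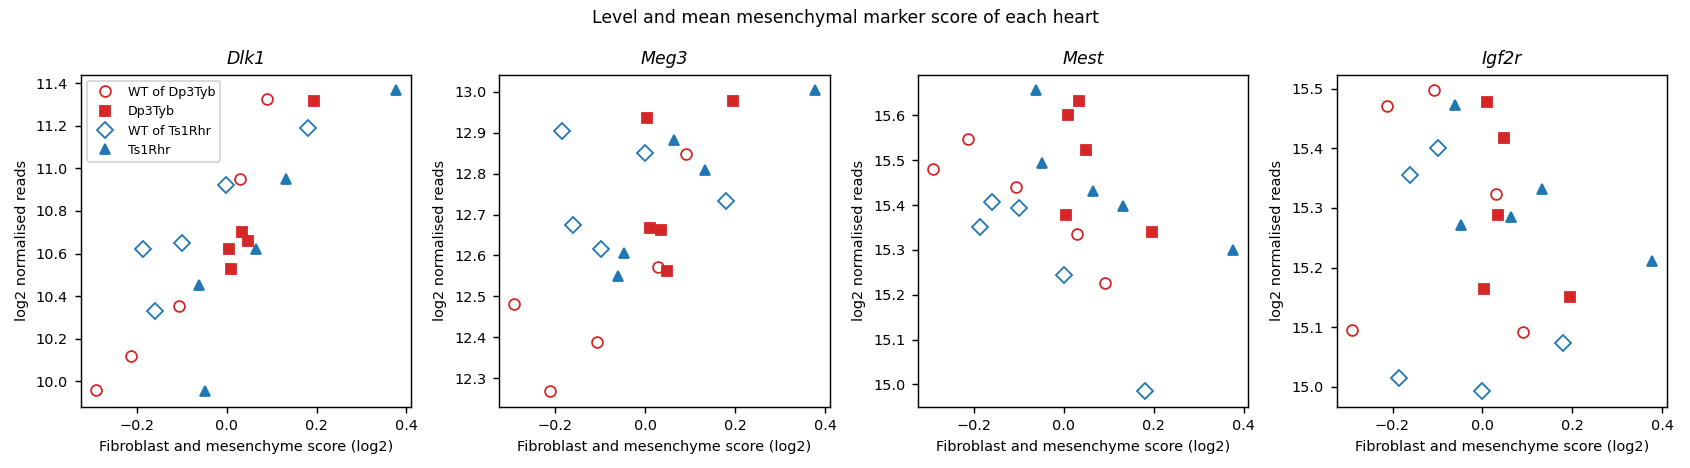
Level (log2 of normalised reads) of Dlk1, Meg3, Mest and Igf2r in each heart against the fibroblast and mesenchyme score (mean log2 difference of the 10 markers from their mean over hearts), with a symbol for each group. Dlk1 and Meg3 are higher and Mest is lower in hearts with a higher score.

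In the 13 low hearts alone, Meg3, Igf2r and Igf2 moved with the cell markers as well. Meg3 then passed by both coefficients, against the cardiomyocyte score (r = -0.95, rho = -0.93, exact adjusted p = 0.0108 and 0.0171; -0.93 without the 2 hearts of most extreme score) and with the fibroblast score (r = 0.877, rho = 0.885, exact adjusted p = 0.0108 and 0.0171; 0.841 without them). Igf2r rose with the cardiomyocyte score (r = 0.840, rho = 0.736, exact adjusted p = 0.0122 and 0.0279; 0.746 without them) and fell with the fibroblast score (r = -0.86, rho = -0.84, exact adjusted p = 0.0122 and 0.0171; -0.90 without them). Of the 12 lists 8 passed by both coefficients for Igf2r, 9 for Dlk1, 7 for Meg3 and 6 for Mest. Igf2 passed with 5 by both coefficients, rising with the cardiomyocyte score (r = 0.824, rho = 0.731, exact adjusted p = 0.021 and 0.0294; 0.763 without the 2 hearts) and the endothelial score (r = 0.795, exact adjusted p = 0.0239) and falling with the fibroblast (r = -0.74, exact adjusted p = 0.032), smooth muscle (r = -0.65, exact adjusted p = 0.0343) and skeletal muscle scores (r = -0.49, exact adjusted p = 0.0332). H19 passed by r alone with the cardiomyocyte score (r = 0.722, exact adjusted p = 0.0332; rho = 0.582, adjusted p = 0.141) and Plagl1 by r alone with the macrophage score (r = -0.73, exact adjusted p = 0.0458; rho = -0.65, adjusted p = 0.081). Peg3 rose with the smooth muscle (r = 0.706), neural crest and Schwann (0.744) and lung and foregut scores (0.682), with exact adjusted p of 0.0349, 0.0332 and 0.0445. No list passed for Grb10 or Ndn in the 13 hearts, and none for any member in the 7. Over the 20 hearts the cardiomyocyte, fibroblast and macrophage scores passed by r for each of Igf2, H19 and Plagl1, but there the hearts form separate clusters for these genes and no pooled coefficient is given. With the proliferation score Igf2r gave 0.755 and Dlk1 -0.76 in the 13 hearts (exact adjusted p = 0.0343 and 0.0317), Mest passed by r alone (0.844, exact adjusted p = 0.0343; rho adjusted p = 0.0694) and Meg3 did not pass (-0.63, exact adjusted p = 0.0715).

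Marker genes of lung and foregut, which lie beside the heart, moved with them too. Of 8 lung and foregut markers 7 passed the filter, and their summed value was 99.8 to 620 in wt_d, 250.35 to 895 in Dp3Tyb, 273 to 649 in wt_t and 145 to 546 in Ts1Rhr. Dlk1 (r = 0.852, adjusted p = 0.00233, permutation) and Meg3 (r = 0.807, adjusted p = 0.00233, permutation) rose with the score of this list, with rho of 0.877 and 0.791 (adjusted p = 0.00237 and 0.00513) and r of 0.805 and 0.788 without the 2 hearts of most extreme score. Mest fell with it (r = -0.63, rho = -0.64, adjusted p = 0.00877 and 0.0187, permutation; -0.57 without them). The score split the hearts, at -3.00 to -2.58 in replicates 2, 4 and 5 of wt_d and 1 and 3 of Ts1Rhr. In all others it was -0.30 to 2.11. The hearts of low score had the lowest Dlk1 of their groups, so these coefficients run over separate clusters. Leaving out 2 hearts does not remove the split. The lung marker Nkx2-1 was 0 to 56.1 and the surfactant gene Sftpc 0 to 3.62. The part of cell composition and of neighbouring tissue in these correlations was not tested. With the fibroblast score removed by regression, Dlk1 with Meg3 was 0.553 (adjusted p = 0.0223, permutation), Meg3 with Igf2r -0.74 (adjusted p = 0.00512, permutation) and Mest with Igf2r 0.647 (adjusted p = 0.00485, permutation). The call of Dlk1 with Mest ended there (r = 0.0596, adjusted p = 0.892, permutation), as did that of Meg3 with Mest (r = -0.48, adjusted p = 0.0892, permutation). In all, 47 of the 140 relations of members with 14 measures passed by r, 42 by rho and 40 by both over the 20 hearts, and 42, 40 and 38 in the 13.

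Genes of the same loci were compared with 4 of the members in 6 pairs, chosen after the values were seen. Over the 20 hearts Meg3 followed Rian (r = 0.671, rho adjusted p = 0.0356, r adjusted p = 0.0104, permutation; 0.460 without the 2 hearts of most extreme Meg3) and Mirg (r = 0.833, adjusted p = 0.00045, permutation; 0.779 without them), noncoding RNAs transcribed downstream of it. Peg3 followed its neighbours Zim1 (r = 0.874, adjusted p = 0.00045, permutation; 0.763 without the 2 hearts) and Usp29 (r = 0.780, adjusted p = 0.00074, permutation; 0.659 without them). In the 13 low hearts Meg3 with Rian was 0.981 (exact adjusted p = 0.0026) and Peg3 with Usp29 0.598 (exact adjusted p = 0.128). Igf2r and Airn, the antisense noncoding RNA in its body that shares no exon base with it, gave r = -0.34 over the 20 hearts (adjusted p = 0.236, permutation) and 0.844 in the 13 (exact adjusted p = 0.015). Mest and Copg2, which overlap on opposite strands, gave r = -0.06 over the 20 hearts (adjusted p = 0.838, permutation).

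The remaining members were Peg3 and Grb10. Peg3 was 12144, 10806, 11869, 10206 and 13720 in wt_d, 12161, 10944, 10364, 12979 and 14074 in Dp3Tyb, 13217, 13922, 12878, 14426 and 9846 in wt_t and 12339, 14088, 9854, 12233 and 12296 in Ts1Rhr. It gave r = 0.701 and rho = 0.701 with mitochondrial share over the 20 hearts (adjusted p = 0.00443 and 0.0066, permutation; 0.620 without the 2 hearts of most extreme share) and 0.227 in the 13 low hearts (exact adjusted p = 0.873). Its correlation with Meg3 (r = 0.555, rho = 0.633, adjusted p = 0.0484 and 0.0219, permutation; 0.630 without the 2 hearts of most extreme Meg3) lost its call in 13 of the 20 repeats that left out a heart, and was not called in the 13 low hearts (r = 0.627, exact adjusted p = 0.0972). Grb10 was 28384, 29411, 27870, 29152 and 29601 in wt_d, 27344, 27501, 27488, 27017 and 28427 in Dp3Tyb, 28701, 28221, 29000, 29468 and 29900 in wt_t and 28608, 26971, 26464, 28596 and 27922 in Ts1Rhr. None of its 9 pairs with other members passed, over the 20 hearts or over the 13, in the deposited scaling. With scaling to the reads outside the mitochondrial genome its pairs with Igf2 (r = -0.82), H19 (-0.76), Plagl1 (-0.78), Ndn (0.774) and Dlk1 (0.604) passed (permutation, adjusted p of 0.00169, 0.0045, 0.00475, 0.00475 and 0.0358), and with the fibroblast score removed its pair with Mest passed by r (-0.51, adjusted p = 0.0451, permutation) and not by rho (-0.45, adjusted p = 0.104).

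The genes whose levels were most like those of each member over the 20 hearts, with group means removed, are given as a description. For Dlk1 they were Col6a3 (r = 0.978), Actg2 (0.962) and Col1a1 (0.955), genes of collagens and of smooth muscle actin. For Meg3 they were Prrx1 (0.944), a mesenchymal transcription factor gene, Pfn2 (0.938) and Rgma (0.935). For Mest they were Xirp1 (0.881), which encodes a protein of the cardiac intercalated disc, Rbpms2 (0.879) and Armh4 (0.876). For Plagl1 they were Arpc2 (0.995), Phactr4 (0.992) and Pdcd5 (0.992), for Igf2 Ubxn1 (0.993), Bex3 (0.992) and Swi5 (0.992) and for H19 Irf2 (0.985), Hcfc1r1 (0.981) and Gatc (0.978). For Ndn they were Ptdss1, Yars1 and Fbxw11 (0.955 to 0.966). For Igf2, H19 and Plagl1 these values run over low and high hearts that form separate clusters. For Ndn they run over the same sets of hearts, whose ranges overlap but whose medians differ. For Igf2r the closest were Bend4 (0.933), Efr3b (0.912) and Sdk1 (0.897), for Peg3 Fubp1, Ptprd and Eml4 (each 0.947) and for Grb10 Zscan26 (0.775), Rab3gap1 (0.768) and Aqp4 (0.764).

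Neither extra stretch of chromosome 16 came with a called change in any of the 10 genes. The comparison of Dp3Tyb with wt_d asks which genes respond to the longer stretch, and 0 of 10 members passed limma's test at an adjusted p of 0.05, where 0.0542% of 14763 genes passed (8 genes). In Ts1Rhr against wt_t 0 of 10 passed, where 0.0269% of 14867 genes passed (4 genes). On the recovered reads DESeq2, which called 0.117% and 0.0936% of the genes with a read, and edgeR, which called 0.061% and 0.0269%, also called none of the 10. At an unadjusted p under 0.05 limma listed none of the 10 in Dp3Tyb (2.8% of all genes) and 1, Ndn, in Ts1Rhr (5.52% of all genes). For DESeq2 these counts were 1 (Grb10) and 1 (Ndn), beside 2.21% and 3.51% of the genes with a p, and for edgeR 0 and 1 (Ndn), beside 2.87% and 5.24%. The values of strain and WT overlapped for every member in both comparisons, where 0.975% and 1.12% of all genes did not overlap. Changes below are log2 fold changes with their SE, on the scale of log2 of the value plus 1.

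Among the ligand and its receptors' regulators, Igf2 was 111315 ± 35036 (SD, n = 5) in wt_d and 105844 ± 27629 in Dp3Tyb, a log2 difference of -0.06 ± 0.21. In the Ts1Rhr cohort Igf2 was 125680 ± 29736 in wt_t and 112625 ± 18046 in Ts1Rhr (-0.14 ± 0.16). The highest hearts of both cohorts were hearts of high mitochondrial share, and with that share as a covariate the differences were -0.03 ± 0.04 and -0.00 ± 0.05. Igf2r, which clears Igf2 to the lysosome, was 40519 ± 5463 in wt_d and 40500 ± 4145 in Dp3Tyb (0.00 ± 0.11), and 37070 ± 5107 in wt_t and 40826 ± 2840 in Ts1Rhr (0.15 ± 0.10). Grb10 differed by -0.07 ± 0.06 in each strain. It was 28883 ± 732 in wt_d and 27555 ± 525 in Dp3Tyb, and 29058 ± 654 in wt_t and 27712 ± 966 in Ts1Rhr. Its 95% intervals, -0.20 to 0.07 and -0.20 to 0.06, were the narrowest of the 10.

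H19 was 146562 ± 28050 in wt_d and 142658 ± 29511 in Dp3Tyb (-0.04 ± 0.16), and 172035 ± 30379 in wt_t and 158044 ± 27313 in Ts1Rhr (-0.12 ± 0.14). Plagl1 was 17104 ± 6754 and 16311 ± 4425 in the Dp3Tyb cohort (-0.03 ± 0.23) and 19479 ± 5072 and 17680 ± 3713 in the Ts1Rhr cohort (-0.13 ± 0.18). With mitochondrial share as a covariate its differences were -0.00 ± 0.04 and 0.04 ± 0.04. For Plagl1, as for Igf2, the SE was several times smaller with the covariate than without it.

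Meg3 had the largest difference of the 10 in Dp3Tyb, with 5894 ± 929 in wt_d and 6989 ± 901 in Dp3Tyb. That was 0.25 ± 0.12 (95% interval -0.01 to 0.51, limma adjusted p = 1.0). In Ts1Rhr it was 0.01 ± 0.09, from 6935 ± 576 to 7035 ± 923. Dlk1 was 1591 ± 663 and 1776 ± 438 in the Dp3Tyb cohort (0.22 ± 0.25) and 1748 ± 400 and 1718 ± 628 in the Ts1Rhr cohort (-0.07 ± 0.23). The interval of Dlk1 in Dp3Tyb, -0.34 to 0.78, was wide enough to hold a fall as well as a rise. Mest was 43538 ± 3755 and 46315 ± 4174 in the Dp3Tyb cohort (0.09 ± 0.09) and 39901 ± 4564 and 45103 ± 4229 in the Ts1Rhr cohort (0.18 ± 0.10). Peg3 was 11749 ± 1353 and 12104 ± 1502 (0.04 ± 0.11) and 12858 ± 1788 and 12162 ± 1508 (-0.08 ± 0.12).

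Ndn had the largest difference in Ts1Rhr, with 810 ± 120 in wt_t and 972 ± 126 in Ts1Rhr. The log2 difference was 0.27 ± 0.12 (95% interval 0.01 to 0.52, limma adjusted p = 0.795). In Dp3Tyb it was 0.21 ± 0.16, from 884 ± 177 to 1014 ± 148 (limma adjusted p = 1.0). The lowest heart of each group was one of high mitochondrial share, and with that share as a covariate the differences were 0.19 ± 0.04 in Dp3Tyb (limma adjusted p = 0.107) and 0.18 ± 0.07 in Ts1Rhr (limma adjusted p = 0.603). Over all alternatives the lowest adjusted p of any of the 10 genes was 0.107 in Dp3Tyb and 0.215 in Ts1Rhr, and the highest was 1.0 in both.

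**Figure D5:**
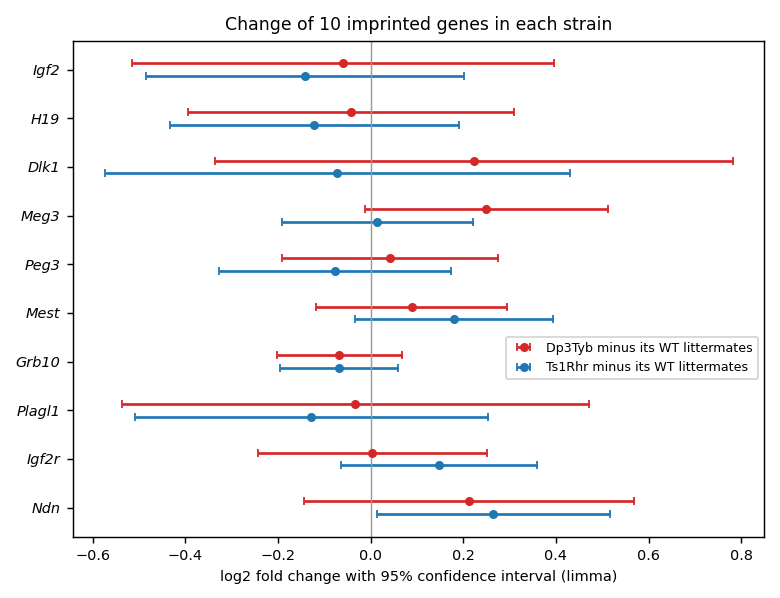
Log2 fold change (log2 of the normalised value plus 1) of each of the 10 genes in Dp3Tyb against wt_d and in Ts1Rhr against wt_t, with 95% intervals from limma. The intervals hold 0 for every gene except Ndn in Ts1Rhr (0.01 to 0.52), whose adjusted p was 0.795.

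No member passed limma's interaction test of whether the change differed between the strains, which called 0.013% of 15348 genes. The differences of the changes, Dp3Tyb minus Ts1Rhr, ran from -0.14 (Igf2r) to 0.30 (Dlk1) on the log2 scale, and none had an unadjusted p under 0.05 (1.52% of all genes). Between the WT groups, wt_t against wt_d, none passed (0% of 15348 genes), with differences from -0.13 (Mest) to 0.24 (Meg3, limma adjusted p = 0.833). Meg3 was the only member with an unadjusted p under 0.05 there (5.84% of all genes). When limma weighted the libraries, 4 members were called in that contrast, H19 (0.31, adjusted p = 0.0262), Igf2 (0.31, adjusted p = 0.0311), Plagl1 (0.36, adjusted p = 0.0297) and Peg3 (0.24, adjusted p = 0.0366), together with 3297 of 15348 genes in all. Hearts of high mitochondrial share made up 3 of 5 in wt_t and 1 of 5 in wt_d.

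Ratios within a heart do not depend on library scaling. Igf2 over H19 was 0.660 to 0.885, Dlk1 over Meg3 0.159 to 0.348 and Plagl1 over Igf2 0.138 to 0.172. Igf2 over Igf2r, the ligand over its clearing receptor, was 2.09 to 2.80 in the 13 low hearts and 2.92 to 5.20 in the 7 high hearts, with no overlap. Igf2 alone already separated these hearts, as did 8.40% of all genes that were higher in all 7. How many other ratios separate them was not counted. In the exact permutation test over all splits of 5 against 5 the log2 ratios of Dp3Tyb and wt_d differed by -0.02 (Igf2 over H19, p = 0.817), -0.03 (Dlk1 over Meg3, p = 0.913), -0.06 (Igf2 over Igf2r, p = 0.746) and 0.03 (Plagl1 over Igf2, p = 0.643). Those of Ts1Rhr and wt_t differed by -0.02 (exact p = 0.714), -0.09 (exact p = 0.714), -0.29 (exact p = 0.262) and 0.01 (exact p = 0.817). Adjusted over the 8 tests each p was 0.913.

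Other imprinted genes gave the same count of calls. Of 58 listed, 56 were in the table and 45 were tested, and none was called in either strain by limma. In Dp3Tyb 25 had a log2 difference above 0 and 20 below (median 0.03), and in Ts1Rhr 21 above and 24 below (median -0.04), beside a median of -0.00 over all genes tested in each. The median of the 10 members was 0.02 and -0.07. The most abundant per kilobase were Cdkn1c (4808 normalised reads), a cell-cycle inhibitor, Gnas (1477), Slc38a4 (768), Peg10 (334), Zim1 (307) and Nnat (301). Unadjusted p-values under 0.05 were found for 4 of the 45 in each strain (2.8% and 5.52% of all genes), Tnfrsf23, Calcr, Ddc and Zdbf2 in Dp3Tyb and Tnfrsf23, Ppp1r9a, Calcr and Ddc in Ts1Rhr. Ddc, which encodes a decarboxylase of amine synthesis and lies next to Grb10, was chosen after its values were seen. It was 814 ± 132 in wt_d and 578 ± 56.1 in Dp3Tyb (-0.48 ± 0.12, limma adjusted p = 0.688), and 825 ± 200.1 in wt_t and 590.3 ± 47.8 in Ts1Rhr (-0.46 ± 0.13, limma adjusted p = 0.795). Its groups did not overlap in either strain, as was the case for 0.975% and 1.12% of all genes. Tnfrsf23, a decoy receptor gene of the TNF receptor family that was also chosen after its values were seen, was 64.6 ± 10.3 in wt_d and 96.8 ± 8.62 in Dp3Tyb (0.59 ± 0.14, limma adjusted p = 0.638), without overlap, and 71.6 ± 13.1 in wt_t and 89.3 ± 7.60 in Ts1Rhr (0.33 ± 0.14, limma adjusted p = 0.795), with overlap.

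In the IGF pathway none of the 35 tested of 37 listed genes was called in either strain, and the counts at an unadjusted p under 0.05 were 1 in Dp3Tyb (Irs1) and 0 in Ts1Rhr, beside 2.8% and 5.52% of all genes. In Dp3Tyb 20 lay above 0 and 15 below, and in Ts1Rhr 17 above and 18 below. The other ligand of the family, Igf1, was 1934 to 4664 over the 20 hearts (median 3390, 321 per kilobase), far below Igf2. The signalling receptors were Igf1r at 2329 to 3162 (132 per kilobase) and Insr at 1973 to 2575 (163 per kilobase). Ins2 did not exceed 1 read in any heart. Of the binding proteins Igfbp5 was the most abundant, with a median of 33300 (5550 per kilobase), followed by Igfbp4 (median 4352), Igfbp3 (1035), Igfbp2 (596), Igfbp7 (219) and Igfbp6 (21.2). The RNA-binding proteins Igf2bp1, Igf2bp2 and Igf2bp3, which bind Igf2 RNA, had medians of 2133, 2168 and 2097. Of 15 genes that set or keep imprints 13 were tested and none was called. At an unadjusted p under 0.05 limma listed 1 of these in Dp3Tyb (Uhrf1, lower without overlap) and 3 in Ts1Rhr (Zfp445, Tet1 and Tet2, all lower), beside 2.8% and 5.52% of all genes. In each strain 2 of these lay above 0 and 11 below (median -0.07 in Dp3Tyb and -0.09 in Ts1Rhr).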

How the data were processed

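Whole hearts of E13.5 embryos were snap frozen, RNA was extracted with the RNeasy Mini kit and poly(A) libraries were made with the KAPA mRNA HyperPrep kit and sequenced on an Illumina HiSeq. The submitters' processing notes name Trimmomatic 0.36, STAR 2.5.2a, RSEM 1.2.31, DESeq and DESeq2 and the build GRCm38. The annotation and the strand setting are not given in the sources used here. The authors deposited a signal for each gene and library, namely reads divided by a size factor of the library. Whole reads were recovered from 100% of the values (tolerance 0.01) and used for the alternatives that need counts. No 2 replicates agreed within sampling noise (mean chi-square per gene 4.11 to 151 over 40 pairs), and 0 columns lacked a sample.

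Gene names and exon lengths came from GENCODE by Ensembl ID (91.3% of 48795 IDs matched), and positions and sequences from RefSeq GRCm38.p6. Dp3Tyb was tested against wt_d, and Ts1Rhr against wt_t, by limma 3.58.1 (R 4.3.3, trended and robust prior, two-sided) on log2 of the value plus 1, for genes with at least 10 in at least 5 libraries, with Benjamini-Hochberg adjustment over all genes tested and a threshold of 0.05. Alternatives used DESeq2 1.42.0, edgeR 4.0.16 with TMM, other pseudocounts and filters, array weights, mitochondrial share as a covariate and fewer libraries. The limma fit was tested on simulated counts with the same biological spread for every gene and no split of hearts by mitochondrial share. That does not measure its power in these hearts. Correlations used values with group means removed and 100000 permutations within groups, or all permutations in the subsets (6912 for 13 hearts and 5040 for 7, where group means were kept because 2 groups had 1 heart each). The smallest p these can give is 1e-05 over 20 hearts and 0.000198 over 7. p-values were adjusted over 45 pairs or 140 relations for each coefficient. A marker score is the mean, over the genes of a list that passed the filter, of log2 values less the gene's mean. Python 3.11.15, numpy 2.4.6, pandas 2.3.3 and scipy 1.17.1 were used.

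The 10 members, the lists and the markers were chosen with earlier results of these data known. The genes named are all members, any other listed gene called in a strain, the 6 most abundant other imprinted genes, the ligands, receptors and binding proteins of the IGF pathway and, for likeness, the 3 genes of highest r among genes that reached 100 in 10 or more libraries. Genes named outside this rule, namely other imprinted and imprint-control genes or Irs1 listed for an unadjusted p or for their groups, and neighbours at the members' loci, were chosen after their values were seen. Depth limits precision, and counts of reads without molecular identifiers are not independent molecules.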

Additional observations from a re-analysis of the deposited data

Results flagged for a closer look

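In each group of 5 hearts the gap of the highest or lowest heart to its nearest neighbour was compared with the range of the group on the log2 scale, and 8 of 40 sets of a member in a group exceeded 0.71, where chance gives about 1 in 20. Igf2 was highest by such a gap in replicate 5 of wt_d (173965) and in replicate 5 of Dp3Tyb (154621). H19 was highest in replicate 5 of wt_d (196663). Plagl1 was highest in replicate 5 of wt_d (29113) and in replicate 5 of Dp3Tyb (24161), and Ndn was lowest in the same hearts (578 and 752). These 7 sets concern the only hearts of high mitochondrial share in their groups (19.5% in wt_d and 15.5% in Dp3Tyb), which were also the shallowest libraries of wt_d and Dp3Tyb (6.60 and 12.5 M reads). Dlk1 was highest in replicate 4 of Dp3Tyb (2549), a heart of low mitochondrial share (5.23%) in which Meg3 was also the highest (8063) and Mest the lowest (41460) of the group. The cause was not tested.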

How the results depend on the processing

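No paired analysis was run, because the replicate numbers follow the order of the samples and only name a heart. No member was called in either strain, nor between the strains, under any alternative run, including leaving out each heart in turn (0 to 0 calls for these and for the WT groups and the ratios). Over all genes, limma called 57 of 14763 in Dp3Tyb with array weights and 45 with mitochondrial share as a covariate. For Ts1Rhr these counts were 16 and 25 of 14867. With a heart left out it called 2 to 13 genes in Dp3Tyb and 1 to 6 in Ts1Rhr, so these fits called few genes of any kind. Between the WT groups array weights called 4 members. The correlated pairs numbered 16, and 13 to 16 when a heart was left out. They numbered 7 with mitochondrial share removed (6 among the 16) and 28 with the fibroblast score removed (14 among the 16). Of the other values, 329 kept their direction and side of the threshold, 19 fell below it, 4 rose past it and 30 changed sign, apart from the repeats that left out a heart; the cause was not tested. Scaling to the reads outside the mitochondrial genome, the fit of all 20 libraries with mitochondrial share, the 7 hearts taken alone and the measures in the 13 hearts were added after seeing the data.

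Sign changed for differences that were not called in either fit. In Dp3Tyb, Plagl1 was 0.011 with array weights and 0.026 without the libraries of high mitochondrial share. Igf2r in Dp3Tyb was -0.00083 by DESeq2, -0.034 with array weights, -0.0024 with mitochondrial share as a covariate, -0.012 without those libraries and -0.0023 in the fit of 20 libraries with the covariate. In Ts1Rhr without those libraries Igf2 was 0.0013, Dlk1 0.0047 and Peg3 0.018, and Dlk1 was 0.21 with array weights. Plagl1 in Ts1Rhr was 0.037 with the covariate and 0.030 with it in the fit of 20 libraries. Leaving out each heart in turn, the differences in Dp3Tyb ranged from -0.20 to 0.11 for Igf2, -0.16 to 0.068 for H19, -0.015 to 0.10 for Peg3, -0.18 to 0.18 for Plagl1 and -0.047 to 0.055 for Igf2r. In Ts1Rhr they ranged from -0.25 to 0.11 for Dlk1, -0.044 to 0.070 for Meg3 and -0.22 to 0.0071 for Plagl1. The highest values of Igf2, H19 and Plagl1 in Dp3Tyb were those without replicate 5 of wt_d. Other uncalled differences kept their sign but moved by over 1.5 times. In Dp3Tyb, Dlk1 ranged from 0.078 (without replicate 5 of wt_d) to 0.42 (without replicate 1 of wt_d), Ndn from 0.066 (without replicate 5 of wt_d) to 0.32 and Mest from 0.044 (without replicate 1 of wt_d) to 0.13. In Ts1Rhr, Igf2 ranged from -0.23 to -0.021 and H19 from -0.19 to -0.032 (both nearest 0 without replicate 4 of wt_t), Peg3 from -0.17 to -0.0035 (without replicate 3 of Ts1Rhr) and Mest from 0.11 (without replicate 5 of wt_t) to 0.22.

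With mitochondrial share removed, r turned to -0.20 for Igf2 with Peg3, 0.323 for Igf2 with Ndn, -0.32 for H19 with Peg3, -0.044 for H19 with Plagl1, 0.226 for H19 with Ndn and 0.279 for Igf2 with Igf2r. In the 13 low hearts these were -0.31, 0.535, -0.54, -0.019, 0.235 and 0.744, and Peg3 with Ndn was 0.0805. With the fibroblast score removed Dlk1 with Mest was 0.0596. The log2 ratios changed sign in the low hearts for Igf2 over H19 (0.0148 in Dp3Tyb and 0.0704 in Ts1Rhr) and for Plagl1 over Igf2 in Ts1Rhr (-0.027). Leaving out each heart, Igf2 over H19 ranged from -0.047 to 0.045 in Dp3Tyb and -0.044 to 0.011 in Ts1Rhr, Dlk1 over Meg3 from -0.16 to 0.085 and -0.20 to 0.051, and Plagl1 over Igf2 from -0.0060 to 0.064 and -0.022 to 0.051. Igf2 over Igf2r lay at -0.24 to 0.16 for Dp3Tyb. For Ts1Rhr it lay at -0.41 to -0.13, the last without replicate 4 of wt_t.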
